A study of Homo sapiens with 12 samples.

Results

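C4-2B prostate cancer cells given the oligonucleotide 56-mer were compared with C4-2B cells given none. The members were chosen by label and make up 6 of the 12 libraries of the series, 3 control libraries and 3 libraries with 56-mer. All 6 cultures grew in glutamine-free RPMI-1640 with fetal bovine serum to which L-glutamine had been returned at 2 mM, and all were taken at 48 h. The treated cultures received 56-mer at 50 nM in addition. The labels give the genotype of the line as WT, and the series text calls the replicates biological triplicates without naming a culture, passage or day, so the p-values measure the spread between these libraries, part of which may be technical. An unrelated oligonucleotide was not analysed here, so the presence of any nucleic acid and the sequence of the 56-mer cannot be told apart. Total RNA was sequenced, so the question here is how the 56-mer alters the transcriptome of C4-2B while glutamine is at hand.

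C4-2B is a castration-resistant derivative of the androgen-dependent LNCaP line. An aptamer is a folded single-stranded nucleic acid that binds a small molecule or a protein, and the series title places the 56-mer among aptamers from cyanobacteria. Cyanobacteria carry a glutamine-binding RNA switch, the glnA motif, but the labels do not say whether the 56-mer derives from it, and neither its sequence nor its target was used here. Glutamine is the most abundant free amino acid in blood and feeds the citrate cycle, nucleotide synthesis and glutathione. When amino acids run short, the kinase GCN2 raises translation of the transcription factor ATF4, which induces amino acid transporters, aminoacyl-tRNA synthetases and CHAC1. When oxygen is short, or when growth signals stabilize it, the transcription factor HIF-1 induces VEGFA, the glucose transporter SLC2A1 and glycolytic enzymes. The transcription factor MondoA responds to glucose phosphates and induces TXNIP, and glutamine is known to restrain this induction.

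The recovered reads numbered 10245014 to 13627140 per control library and 12277758 to 12508539 per 56-mer library. Rank correlation across genes was 0.977 to 0.982 within groups and 0.975 to 0.980 between groups, so the 2 groups were hardly further apart than the libraries of 1 group. The library 56-mer 1 stood apart by transcript length and carried the lowest library weight in limma, 0.649 against 0.874 to 1.39 for the other libraries. Length was that of the longest GENCODE transcript of each gene. In 56-mer 1 the quartile of genes with the shortest transcripts (up to 1752 bases) lay at a median of 0.13 above the control mean on the log2 scale. The quartile with the longest (from 4851 bases) lay at −0.11. The corresponding medians were 0.09 and −0.05 in 56-mer 2 and 0.05 and −0.01 in 56-mer 3. By GC content 56-mer 2 and 3 stood apart instead. The rank correlation of each gene's deviation from its 6-library mean with transcript GC content was 0.30 and 0.32 in them. It was −0.18 in 56-mer 1 and −0.20, −0.005 and −0.21 in controls 1 to 3. All 12 markers of luminal prostate epithelium on the list used were measured above the filter, among them KLK3, which encodes prostate-specific antigen, KLK2, FOLH1 and KRT18. Of 10 leukocyte markers only CD68, which epithelial lines also express, passed the filter, and 5 were at 0 in all 6 libraries. On the other lists 6 of 9 basal epithelial, 2 of 11 neuroendocrine, 4 of 11 fibroblast and 2 of 7 endothelial markers passed the filter. In bulk RNA a change in the RNA of each cell and a change in the mix of cells cannot be told apart.

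Stretches of the promoters of 3 genes described below are shown because each holds the short motif of the factor known to act on its gene group. TXNIP was 1 of the genes that rose, CHAC1 was another, and BNIP3 was the oxygen-regulated intracellular gene with the smallest p. The sequences are the 250 bases before the start in RefSeq on GRCh38.p14, 5′ to 3′ along the gene. TXNIP lies on the minus strand and the stretch is chr1:145996580-145996829, with capitals marking CACGAG, an E-box-like repeat of the carbohydrate response element, at −88 and −77 from the start. CHAC1 lies on the plus strand and the stretch is chr15:40953221-40953470, with capitals marking the C/EBP-ATF composite site TGATGCAA, read on the other strand, at −209. BNIP3 lies on the minus strand and the stretch is chr10:131981924-131982173, with capitals marking ACGTG and GCGTG, the cores of hypoxia response elements, on either strand from −143 to −104.
TXNIP: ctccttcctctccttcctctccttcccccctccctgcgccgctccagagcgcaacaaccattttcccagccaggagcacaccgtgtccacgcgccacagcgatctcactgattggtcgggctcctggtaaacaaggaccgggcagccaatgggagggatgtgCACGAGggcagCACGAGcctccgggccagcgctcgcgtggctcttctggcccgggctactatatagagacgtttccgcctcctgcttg
CHAC1: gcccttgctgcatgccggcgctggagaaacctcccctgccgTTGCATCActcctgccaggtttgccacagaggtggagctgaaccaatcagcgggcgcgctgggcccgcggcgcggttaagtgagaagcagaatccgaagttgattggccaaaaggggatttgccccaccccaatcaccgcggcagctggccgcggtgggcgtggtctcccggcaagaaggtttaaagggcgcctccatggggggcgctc
BNIP3: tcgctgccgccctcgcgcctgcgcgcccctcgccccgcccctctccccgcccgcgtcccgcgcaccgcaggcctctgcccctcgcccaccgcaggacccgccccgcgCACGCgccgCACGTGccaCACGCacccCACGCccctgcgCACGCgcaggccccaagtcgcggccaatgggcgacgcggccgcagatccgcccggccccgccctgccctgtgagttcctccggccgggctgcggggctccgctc

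Over both strands, CACGAG occurs in this window of 5.58% of the 35116 promoters of the table, and at least 2 copies in 0.208%. TGATGCAA occurs in 0.772%, ACGTG in 18.5% and GCGTG in 32.2%. The longer CACGTG, which contains ACGTG, occurs in 6.34% and stands in BNIP3 at −134. Of 22 genes looked up among those with the smallest p in the comparison, 16 had a promoter in the table. Among these CACGAG was found in 1, TGATGCAA in 1, CACGTG in 3, ACGTG in 5 and GCGTG in 9. The motifs were not shared by all genes of a group. GDF15 held no TGATGCAA and SLC2A1 neither ACGTG nor GCGTG, whereas the oxygen-regulated WSB1 held ACGTG. The other TXNIP entry of the table holds no CACGAG. These matches describe the letters and no binding was measured.

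Few genes passed an adjusted p of 0.05 (limma) in C4-2B with 56-mer, and the changes of these genes were small. TXNIP, CHAC1, the chaperone HSPB1 and the co-chaperone NUDC rose, as did 2 mitochondrially encoded and 2 ribosomal transcripts. VEGFA, GDF15 and the transcription factor SOX4 fell. These 11 genes were 0.066% of the 16657 tested (0.048% higher and 0.018% lower with 56-mer; limma adjusted p under 0.05), and their means were 1.18-fold (MT-CO3 and RPLP0) to 1.51-fold (TXNIP) higher with 56-mer, or 1.28-fold (GDF15) to 1.44-fold (SOX4) higher in controls. In all 11 the 3 values with 56-mer lay outside the range of the controls, which was the case for 14.7% of all genes tested (7.59% higher and 7.08% lower). An unadjusted p under 0.05 was reached by 8.92% of the genes. The split of 8 higher and 3 lower moved with the scaling: it was 2 and 8 with quantile normalization, where GADD45GIP1, HSPB1, MT-CO3, MT-ND2, NUDC and RPLP0 lost the call, 4 and 7 when all libraries were set to equal totals, where GADD45GIP1, MT-CO3, NUDC and RPLP0 lost it, and 5 and 3 with TMM factors, where MT-CO3, NUDC and RPLP0 did. Leaving out control 1, 2 or 3 or 56-mer 2 or 3 left 0 genes past the threshold with limma (1045 to 1520 at an unadjusted p under 0.05), with adjusted p of the 11 genes between 0.07 and 0.769, and leaving out 56-mer 1 left 81. All 11 kept their direction in each of these fits.

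**Figure D1:**
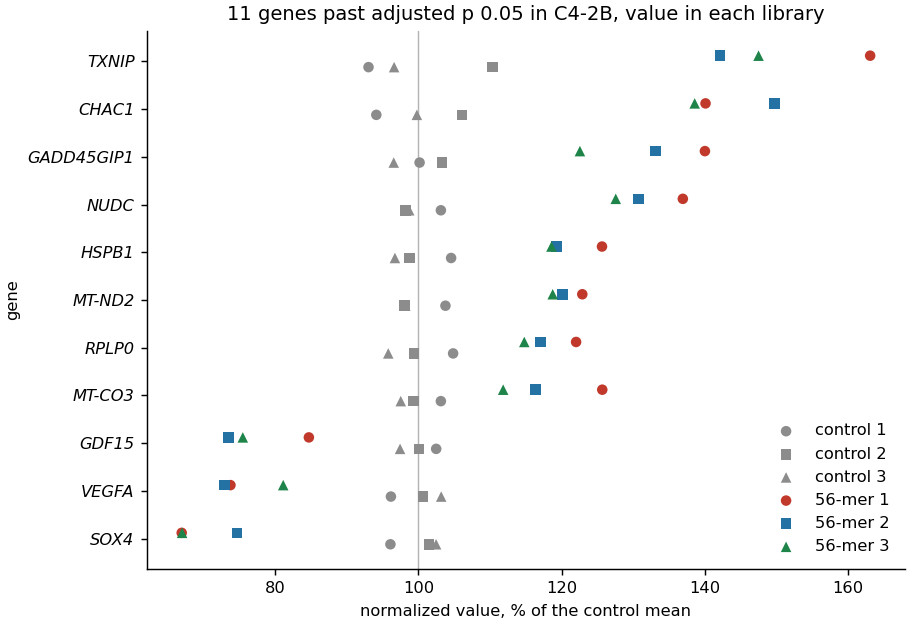
Normalized value of each of the 11 genes past the threshold in each C4-2B library, in percent of that gene's control mean. Grey symbols are the 3 control libraries and coloured symbols the 3 libraries with 56-mer, which lie to the right of all controls for 8 genes and to the left for 3.

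TXNIP showed the largest rise of the 11. Its product, of the arrestin fold, inhibits thioredoxin and pulls glucose transporters from the cell surface. Its normalized values were 771, 915 and 801 in controls 1 to 3 and 1352, 1178 and 1223 in 56-mer 1 to 3. The lowest value with 56-mer was above the highest control, and the fitted log2 change was 0.59 ± 0.11 (SE, n = 3 per group; limma adjusted p = 0.0254). ARRDC4, its closest relative and the other classical MondoA target, was low and overlapped, with 44.1 to 75.3 in controls and 58.8, 51.5 and 56.5 with 56-mer. MLXIP, the gene of MondoA itself, measured 1791, 2021 and 1809 in controls and 1447, 2283 and 2651 with 56-mer, lowest in 56-mer 1 and highest in the other treated libraries (0.14, adjusted p = 0.913), and passed without 56-mer 1 (0.39, 0.0116). The related arrestins ARRDC2 and ARRDC3 had log2 changes of −0.38 (adjusted p = 0.527) and −0.46 (0.543), and neither passed. TXNRD1, the reductase that recycles thioredoxin, had −0.16 (0.696), and PDP1, the phosphatase that activates pyruvate dehydrogenase, −0.59 (0.685). Of the 14 genes of this axis on the list used, TXNIP alone passed over 6 libraries, 9 were higher and the median was 0.06, where 48.3% of all tested genes were higher and their median was −0.01.

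CHAC1 and GDF15, which are both induced through ATF4 in stressed cells, moved in opposite directions. CHAC1 degrades glutathione by cleaving its glutamyl bond. It measured 1449, 1633 and 1536 in controls and 2157, 2306 and 2134 with 56-mer, so that the 3 treated libraries were close to each other and all above the controls. Its log2 change was 0.52 ± 0.09 (limma adjusted p = 0.0241). GDF15, a secreted stress cytokine, measured 20319, 19846 and 19318 in controls and 16791, 14564 and 14959 with 56-mer. Here 56-mer 1 lay closest to the controls and the log2 change was −0.36 ± 0.06 (limma adjusted p = 0.0241), or −0.43 without 56-mer 1.

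The rest of the ATF4 programme was divided. Of the 34 tested genes of the amino acid response list 17 were higher and 17 lower, with a median close to 0, and CHAC1 and GDF15 were the only members that passed. ATF4 itself measured 10207, 10029 and 9513 in controls and 11071, 9516 and 9827 with 56-mer, with overlap. DDIT3, the ATF4 partner also called CHOP, had a log2 change of −0.04 (95% interval −0.25 to 0.17). ASNS, which uses glutamine to make asparagine, had −0.04 (−0.56 to 0.47). TRIB3, the pseudokinase that restrains ATF4, had 0.13 (−0.02 to 0.29). Among members without overlap, SESN2, which reports leucine shortage to mTORC1, was higher (930, 1046 and 911 against 1162, 1207 and 1208; adjusted p = 0.397), and so was PHGDH, the entry enzyme of serine synthesis (log2 change 0.18, 0.392). SLC7A1, the carrier of arginine and lysine, was lower without overlap (3805, 3653 and 3564 against 2941, 2945 and 3287; 0.322), as was XPOT, the exporter of tRNA (−0.20, 0.483). In all, 6 of the 34 were higher and 3 lower without overlap, where the shares over all tested genes were 7.59% and 7.08%.

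The 20 cytosolic aminoacyl-tRNA synthetases, which charge tRNA with amino acids, were equally mixed. VARS1, for valine, measured 3623, 3475 and 3828 in controls and 4406, 4673 and 4294 with 56-mer (0.29, 0.222). FARSB, HARS1 and SARS1, for phenylalanine, histidine and serine, had log2 changes of 0.33, 0.28 and 0.23. Of the 20, 6 were higher and 4 lower without overlap (7.59% and 7.08% over all genes), and 0 passed. EPRS1, TARS1 and NARS1 were among those lower, with −0.15, −0.13 and −0.07.

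VEGFA, the angiogenic growth factor, was the oxygen-regulated gene that fell. It measured 6716, 7032 and 7207 in controls and 5149, 5093 and 5665 with 56-mer, with no overlap and a log2 change of −0.40 ± 0.07 (limma adjusted p = 0.0241). Other secreted products of this programme overlapped between groups: STC2, a stanniocalcin, had −0.03, and the median over the 8 tested members was −0.02, or 0.02 with quantile normalization. Of the 24 oxygen-regulated intracellular genes 19 were lower, where 51.7% of all tested genes were, with a median log2 change of −0.19, and 9 were lower without overlap, against 7.08% of all genes; none was higher without overlap and none passed. Seen library by library, the list median stood at −0.11, −0.12 and −0.25 relative to the control mean in 56-mer 1, 2 and 3, so 56-mer 1 did not stand apart here. The median was −0.20 with quantile normalization, −0.14 once GC content and length were corrected for, and −0.16 without 56-mer 1.

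BNIP3, a receptor for the removal of mitochondria by autophagy, led these genes by p. It measured 12104, 11748 and 11975 in controls and 10542, 9498 and 9477 with 56-mer (limma adjusted p = 0.105, and 4.85e-05 without 56-mer 1). Its relative BNIP3L had a log2 change of −0.23 with 1 treated library inside the control range. WSB1, part of an E3 ubiquitin ligase, measured 1315, 1386 and 1405 in controls and 1010, 925 and 1088 with 56-mer (−0.44, adjusted p = 0.155). The histone demethylase KDM3A had −0.33, the sterol regulator INSIG2 −0.42, the circadian repressor BHLHE40 −0.24 and the stress protein NDRG1 −0.21. The collagen hydroxylases P4HA1 and PLOD2 had −0.17 and −0.30, and MXI1, a MAX partner, −0.11. Members that overlapped and were lowest in 56-mer 1 included EGLN1, the prolyl hydroxylase that marks HIF-1 for destruction (170, 198 and 191 against 103, 211 and 145), KDM4B, another histone demethylase (2878, 2805 and 2624 against 1570, 2512 and 2727), and PPFIA4, a liprin (337, 408 and 413 against 174, 382 and 307).

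HIF1A, the oxygen-regulated subunit of HIF-1, measured 680, 772 and 697 in controls and 658, 455 and 529 with 56-mer. Its log2 change was −0.40 ± 0.14 (limma adjusted p = 0.41), and without 56-mer 1, which lay closest to the controls, it was −0.54 (0.045). Its transcript has a GC content of 36.4%, against a median of 49.3% over all tested genes. The fit without 56-mer 1 had a trend with GC content (rank correlation 0.39). Whether that trend bears on this call was not tested. HIF-1 is controlled mostly at the protein level, which RNA does not show. The other 10 tested genes of oxygen sensing had no member lower and 1 higher without overlap (7.08% and 7.59% over all genes).

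Glucose uptake and glycolysis genes were lower in 18 of 28 cases (51.7% over all genes), with a median of −0.07. SLC2A1, the main glucose transporter of proliferating cells, measured 1493, 1577 and 1519 in controls and 1218, 1007 and 1033 with 56-mer. All 3 treated values were below all controls, the log2 change was −0.50 ± 0.10 (limma adjusted p = 0.054), and without 56-mer 1 it was −0.58 (0.000389). PFKFB3, which makes the activator of phosphofructokinase, measured 843, 1074 and 874 against 621, 621 and 777 (−0.47, 0.291), and its relative PFKFB4 had −0.42 (0.322). Hexokinase 2, HK2, measured 1324, 1134 and 1348 against 964, 1004 and 958 (−0.38, 0.294). PFKP, the platelet-type phosphofructokinase, GYS1, glycogen synthase, and PDK1, the kinase that shuts pyruvate dehydrogenase, had −0.23, −0.28 and −0.21. These 7 were the members lower without overlap (7.08% over all genes). GPI and PKM, enzymes near the start and the end of glycolysis, were higher without overlap (7.59% over all genes), with 0.07 and 0.11. LDHA, which makes lactate, had −0.10 with overlap, and −0.16 without 56-mer 1 (0.0261).

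**Figure D2:**
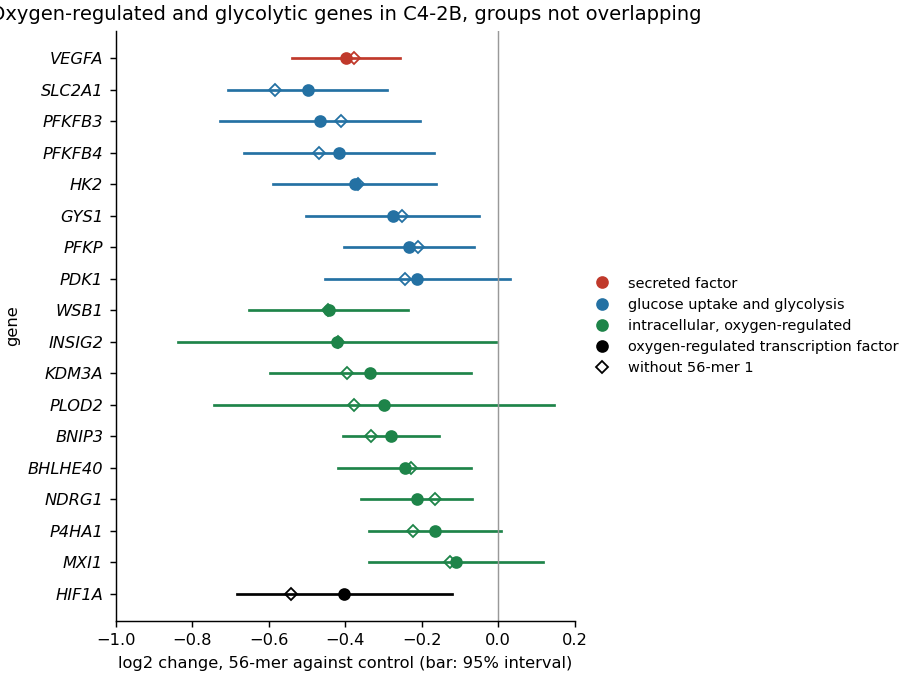
Fitted log2 change of VEGFA, HIF1A and those oxygen-regulated and glycolytic genes that were lower with 56-mer without overlap, with filled circles for the 6-library fit, bars for its 95% interval and open diamonds for the fit without 56-mer 1. Genes were picked for their direction, and values run from −0.11 for MXI1 to −0.50 for SLC2A1; VEGFA alone passed the threshold over all genes.

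SOX4, a transcription factor that acts in progenitor and carcinoma cells, fell. It measured 1573, 1661 and 1677 in controls and 1095, 1222 and 1096 with 56-mer, with a log2 change of −0.53 ± 0.10 (limma adjusted p = 0.0254). Its relative SOX12 overlapped, with 0.08 (0.865). FOXA1, the pioneer factor that opens chromatin in prostate epithelium, measured 3560, 3410 and 3505 in controls and 2868, 2609 and 2773 with 56-mer. Its groups did not overlap, but its log2 change of −0.35 ± 0.08 did not pass (limma adjusted p = 0.12), and did without 56-mer 1 (−0.38, 0.00195).

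Androgen-driven genes gave no call. KLK3, KLK2, TMPRSS2 and FKBP5 overlapped. FOLH1, which encodes prostate-specific membrane antigen and is repressed by androgen, had −0.12 (95% interval −0.26 to 0.03). Of 31 tested androgen-induced genes 2 were higher and 3 lower without overlap (7.59% and 7.08% over all genes). The median was −0.03, and 0 passed.

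No glutamine gene passed. Of 24 tested transporters and enzymes of glutamine 9 were higher (48.3% over all genes), or 13 without 56-mer 1. The median was −0.02, and log2 changes ran from −0.64 to 0.25. GLUL, which makes glutamine, had −0.01 (95% interval −0.19 to 0.16) and the importer SLC1A5 0.05 (−0.10 to 0.20). GOT1, the cytosolic aspartate transaminase, was higher without overlap (1963, 1941 and 1967 against 2541, 2189 and 2180; adjusted p = 0.456), and GLUD1, glutamate dehydrogenase, lower (1360, 1277 and 1332 against 1250, 1108 and 1079; 0.545). The proliferation marker MKI67 had −0.03 (−0.21 to 0.15) and MYC −0.11 (−0.28 to 0.07).

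Of the chaperones 2 rose. HSPB1, the small heat shock protein HSP27, measured 27614, 26071 and 25540 in controls and 33184, 31513 and 31319 with 56-mer (log2 change 0.28 ± 0.05, limma adjusted p = 0.0254). NUDC, a dynein-associated partner of HSP90, measured 2631, 2504 and 2518 against 3493, 3335 and 3254 (0.40 ± 0.08, 0.0395). The classical heat shock proteins overlapped: HSPA8 had −0.03 and HSP90AA1 0.11. DNAJB4 and HSPA4L were lower without overlap, with −0.72 (0.452) and −0.51 (0.392). Over the 35 tested genes of the list the median was 0.05, or −0.01 with quantile normalization. Without overlap 5 were higher and 3 lower (7.59% and 7.08% over all genes). Correction of each library for GC content and transcript length ended both calls as well.

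The mitochondrial and ribosomal transcripts that rose belong to families that were broadly higher in 56-mer 1. MT-ND2, which belongs to respiratory complex I, measured 25977, 24548 and 24572 in controls and 30766, 30073 and 29730 with 56-mer (0.27 ± 0.05, limma adjusted p = 0.0254). MT-CO3, part of cytochrome c oxidase, measured 68625, 66099 and 64894 against 83638, 77415 and 74419 (0.24 ± 0.05, 0.0361). MT-CYB and MT-ATP6 were higher without overlap but did not pass, with 0.22 (0.0828) and 0.20 (0.161). Of the 13 mitochondrially encoded proteins 11 were higher (48.3% over all genes), with a median of 0.12, whereas 6 were higher with quantile normalization. Without overlap 7 were higher and 0 lower (7.59% and 7.08% over all genes). The list median relative to the control mean was 0.23 in 56-mer 1, 0.10 in 56-mer 2 and 0.06 in 56-mer 3. All 37 mitochondrially encoded entries took 7.65%, 7.69% and 7.60% of the reads in controls and 8.29%, 7.95% and 7.84% with 56-mer. All 3 treated shares were above the controls, and the exact two-sided permutation p of the difference of 0.38 percentage points was 0.1, the smallest that 3 against 3 libraries allow.

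Among nuclear genes for the same organelle, GADD45GIP1, a protein of the mitochondrial ribosome, rose. It measured 3223, 3324 and 3106 in controls and 4506, 4284 and 3944 with 56-mer (0.40 ± 0.08, limma adjusted p = 0.0361). With GC content and length corrected for it had 0.29 and did not pass (adjusted p = 0.141). Of the 81 tested mitochondrial ribosomal proteins 67 were higher (48.3% over all genes) and 24 were higher without overlap (7.59% over all genes), with a median of 0.14; MRPL41 had 0.30 and MRPL23 0.35. The list median was 0.29 in 56-mer 1, 0.12 in 56-mer 2 and 0.06 in 56-mer 3. Of 79 nuclear subunits of the respiratory chain and ATP synthase 68 were higher, 26 without overlap, and 0 passed, beside the same shares over all genes. NDUFS8 of complex I measured 3071, 3336 and 2966 against 3916, 3471 and 3671, UQCRC1 of complex III had 0.22 and ATP5F1D of the ATP synthase 0.27 (adjusted p = 0.222). COX6B1 of complex IV was highest in 56-mer 1 and overlapped in 56-mer 3 (3460, 3345 and 3259 against 4374, 4052 and 3415). Here the list median was 0.29 in 56-mer 1, 0.12 in 56-mer 2 and 0.03 in 56-mer 3, and in the fit it was 0.16, or 0.09 without 56-mer 1.

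RPLP0, a stalk protein of the cytosolic ribosome, rose from 43229, 40972 and 39490 to 50317, 48257 and 47330 (0.24 ± 0.05, limma adjusted p = 0.0446). Of the 88 tested cytosolic ribosomal proteins 83 were higher (48.3% over all genes), with a median of 0.15. Without overlap 33 were higher and 1 was lower (7.59% and 7.08% over all genes). RPL13 measured 32883, 30380 and 29388 against 37666, 34689 and 34399 (0.20, 0.234), RPS26 had 0.27 and RPS19 0.26. The list median was 0.28 in 56-mer 1, 0.09 in 56-mer 2 and 0.04 in 56-mer 3, it was 0.07 without 56-mer 1, and with quantile normalization it was 0.06 with 66 genes higher. These proteins took 8.75%, 8.35% and 8.38% of reads in controls and 9.87%, 8.87% and 8.60% with 56-mer, so that 56-mer 3 lay within the control range (exact two-sided permutation p = 0.2). Ribosomal proteins have many processed pseudogenes whose reads cannot be told apart from theirs with certainty. The 37 tested proteasome subunits showed the same order of libraries, with 30 higher, a median of 0.12 and list medians of 0.17, 0.10 and 0.07. PSMC5, an ATPase of the cap, had 0.27 and PSMB3, a subunit of the core, 0.26, both without overlap. Length was taken from the longest GENCODE transcript of each gene, which need not be the one expressed. By this measure transcripts of these families are mostly short. The median was 1842 bases for the cytosolic ribosomal list and 1583 for the respiratory chain list, against 3052 for all tested genes. With GC content and length corrected for, the medians of these lists were 0.10 and 0.12.

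**Figure D3:**
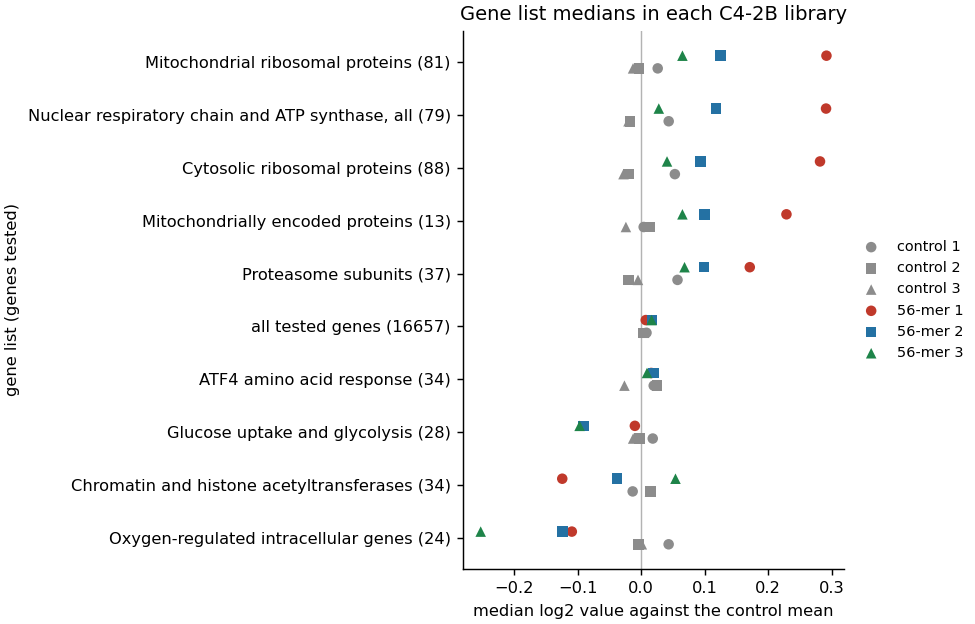
Median log2 value of each gene list in each C4-2B library relative to the control mean, with grey symbols for controls and coloured symbols for 56-mer. Ribosomal, respiratory chain and mitochondrially encoded lists lie highest in 56-mer 1 (0.23 to 0.29), the chromatin list lies lowest there, and the oxygen-regulated list is lower in all 3 treated libraries.

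Genes with long transcripts were lower in 56-mer 1. Among 34 chromatin regulators and histone acetyltransferases the median length of the longest GENCODE transcript is 8470 bases. Of these genes 23 were lower and 5 were lower without overlap, where the shares over all tested genes were 51.7% and 7.08%. Their median log2 change was −0.08, or −0.02 without 56-mer 1. KAT6A, a histone acetyltransferase, measured 238, 257 and 223 in controls and 105, 143 and 172 with 56-mer (−0.79, adjusted p = 0.294), and its relative KAT6B 518, 611 and 557 against 348, 396 and 440 (−0.51, 0.295). EP300, a histone acetyltransferase and coactivator of HIF-1, measured 685, 777 and 707 against 442, 601 and 601 (−0.41, 0.397). For these 3 the treated libraries were all below the controls. By contrast KMT2D, a histone methyltransferase, measured 1058, 1836 and 1362 in controls and 430, 1604 and 1836 with 56-mer, low in 56-mer 1 alone.

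With 56-mer 1 left out, 81 genes (0.486% of those tested) passed, 44 higher and 37 lower. All 11 genes described above were among them. In this fit the log2 change had a rank correlation of 0.39 with transcript GC content, against 0.24 over 6 libraries. With transcript length it was −0.18, against −0.32. Whether these trends bear on the calls made without 56-mer 1, here and elsewhere, was not tested. For 11 of the 81, the value in 56-mer 1 lay on the other side of the control mean from the other 2 treated libraries, and for 20 the groups of 3 overlapped. The 6 largest falls among genes at or above the median level were those of HINT3, ZNF532, AC025164.2, IQGAP2, TOB1 and CLDN12. HINT3, a nucleotide hydrolase, measured 532, 558 and 514 in controls and 471, 262 and 301 with 56-mer (−0.92 without 56-mer 1, limma adjusted p = 0.000766). ZNF532, a zinc finger protein, measured 455, 445 and 557 against 331, 215 and 359 (−0.80, 0.0233), and TOB1, an antiproliferative partner of the deadenylase complex, 836, 781 and 829 against 687, 526 and 531 (−0.62, 0.00637). IQGAP2, a scaffold of the cytoskeleton, and CLDN12, a claudin, had −0.72 and −0.62. In HINT3, IQGAP2, TOB1 and CLDN12 the value of 56-mer 1 lay between the controls and the other treated libraries, in ZNF532 it lay between those of 56-mer 2 and 56-mer 3, and in AC025164.2 it lay within the control range.

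The 6 largest rises without 56-mer 1, again among genes at or above the median level, were those of TANC2, SSPO, HGH1, EBP, TXNIP and CHAC1. EBP, a sterol isomerase of cholesterol synthesis, measured 584, 560 and 464 in controls and 672, 776 and 816 with 56-mer (0.58, limma adjusted p = 0.0301), and HGH1, a chaperone of elongation factor 2, 452, 512 and 515 against 563, 702 and 834 (0.64, 0.0154). TANC2, a scaffold protein, measured 138, 140 and 191 against 183, 270 and 324. SSPO, a giant extracellular protein gene, measured 391, 421 and 412 against 221, 714 and 590, and so was low in 56-mer 1 and high in the other treated libraries. LAMA5, a laminin chain chosen after its values were seen, had the same form, with 4682, 5652 and 5351 in controls and 3471, 6033 and 6696 with 56-mer. NAMPT, the rate-limiting enzyme of NAD salvage, measured 2026, 1787 and 1721 against 1554, 1206 and 1314 (−0.45 over 6 libraries, adjusted p = 0.155, and −0.55 without 56-mer 1, 0.000522). SRM, spermidine synthase, NAXE, which repairs damaged NADH, and BOP1, a factor of large-subunit rRNA processing, were higher without overlap and passed without 56-mer 1 (0.35, 0.33 and 0.43, with adjusted p of 0.00144, 0.0104 and 0.0108).

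**Figure D4:**
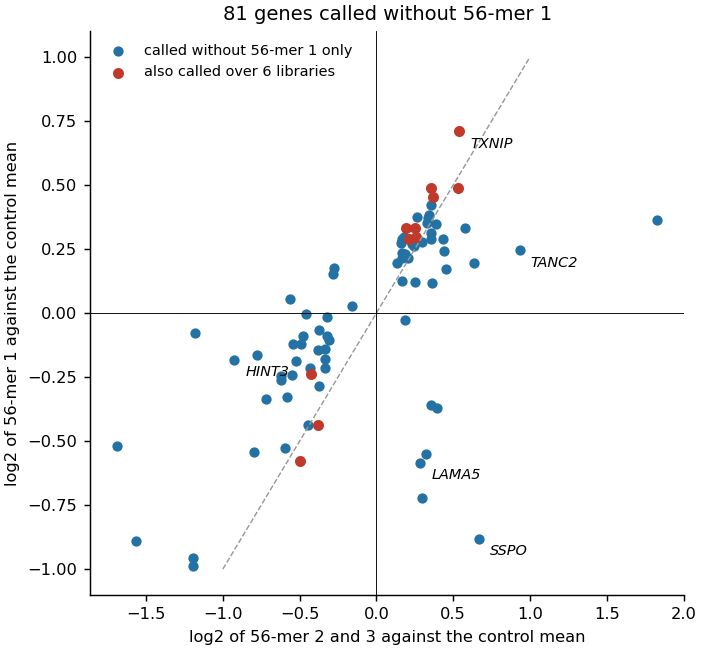
For the 81 genes that passed without 56-mer 1, the log2 mean of 56-mer 2 and 3 relative to the control mean is set against the value of 56-mer 1, with the dashed line marking equality. Red points are the 11 genes called over 6 libraries, which lie near the line, and 11 points such as SSPO and LAMA5 lie in the quadrants where 56-mer 1 has the opposite sign.

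Foreign nucleic acid can be sensed by Toll-like and RIG-I-like receptors and by cGAS, which act through TBK1 and the IRF factors to induce interferon genes. Of the 15 tested sensors and adaptors 7 were higher, with a median of −0.03, and 0 passed. TBK1, the kinase they share, measured 393, 445 and 384 in controls and 345, 271 and 279 with 56-mer, lower without overlap (−0.45, adjusted p = 0.446). Of 18 tested interferon-stimulated genes 11 were higher, with a median of 0.09, 4 were higher and 1 lower without overlap (7.59% and 7.08% over all genes), and 0 passed. The lower member was DTX3L, a ubiquitin ligase, with 282, 371 and 297 in controls and 200, 278 and 255 with 56-mer (−0.38, limma adjusted p = 0.558). BST2, also called tetherin, measured 2305, 2038 and 1983 against 2692, 2498 and 2349 (0.25, 0.417), and IFI6 170, 173 and 175 against 211, 250 and 213 (0.37, 0.587).

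The genes with the largest fold differences were weakly expressed. Among genes with a mean of at least 100 and no overlap, PDXP, the pyridoxal phosphate phosphatase, had the lowest log2 change, with 182, 193 and 146 in controls and 86.3, 90.6 and 61.4 with 56-mer (−1.13 ± 0.26, limma adjusted p = 0.155). The others at this end were AC025043.1 (−1.11), AC044860.1 (−0.94), PPP1R3D, a glycogen-targeting subunit of protein phosphatase 1 (−0.91), AC016027.1 (−0.89) and CDH26, a cadherin (−0.81). At the other end AC109635.3 had 0.91, IFI27L1 0.87, HIRA, the chaperone of histone H3.3, 0.85, AP002893.1 0.85, ZNF593 0.79 and ERCC6L2, a DNA repair helicase relative, 0.74. HIRA measured 134, 154 and 141 against 258, 245 and 274, with no overlap, and its adjusted p was 0.155. None of these 12 passed.

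Some transcripts had at most 3 reads in each library of 1 group and at least 10 on average in the other. The tumour necrosis factor receptor gene TNFRSF1B had normalized values of 0, 1.14 and 1.69 in controls and 17.6, 13.4 and 17.5 with 56-mer. IGFBPL1, an IGF-binding protein relative, had 27.8, 26.2 and 16.1 against 0, 0 and 0.974, and TMEM139 13.9, 12.5 and 16.1 against 0.98, 2.86 and 2.92. The same was seen for Z98884.1 and AC008074.2 (present with 56-mer) and for IMPG1, AC007899.1, AC008267.2 and C17orf50 (present in controls). None of these 9 passed, and at these counts a fold has no firm size.

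**Figure D5:**
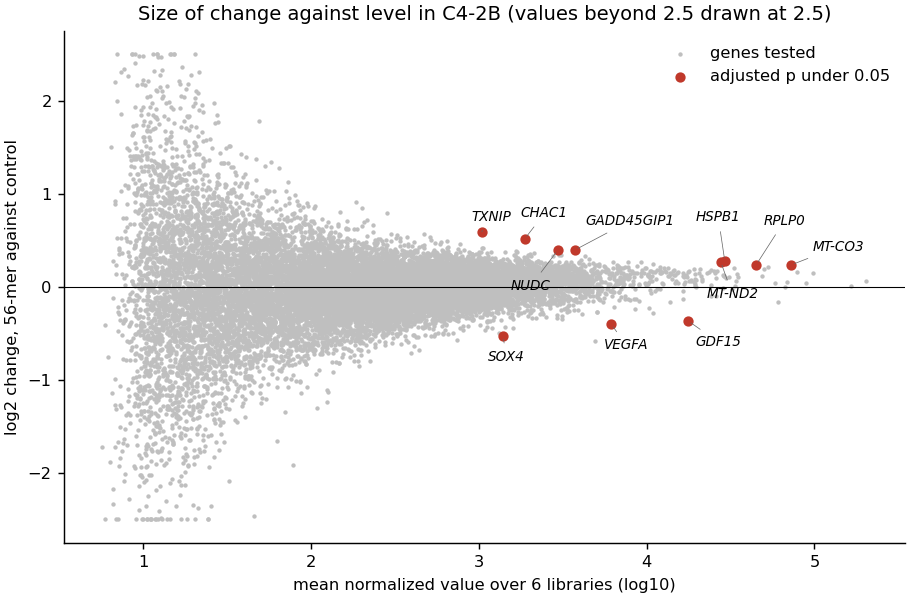
Log2 change with 56-mer against mean normalized value for the genes tested in C4-2B, with the 11 genes past the threshold in red. The genes past the threshold lie at middle to high levels, and the wide scatter lies at low levels.

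In 22RV1, the other prostate cancer line of the series, treated alike and normalized separately, the 11 genes had log2 changes from −0.08 to 0.18. TXNIP had −0.04 there, CHAC1 −0.03, VEGFA −0.08, HSPB1 −0.05, RPLP0 −0.04, GDF15 0.12 and SOX4 0.12, next to 0.05 for GADD45GIP1 and 0.13 for NUDC. MT-ND2 and MT-CO3 had 0.16 and 0.18. The change in 22RV1 minus that in C4-2B passed for 0 of the 15527 genes tested in both lines (limma over 12 libraries, 7.9% at an unadjusted p under 0.05), and for the 11 genes its adjusted p ran from 0.0961 for TXNIP to 0.868 for MT-CO3. The lines are therefore not shown to differ for any of them.

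The authors' deposited table of the same comparison gives the same sign for all 11 genes and no adjusted p below 0.447, with unadjusted p of 4.59e-08 for GDF15 and 1.42e-08 for VEGFA. Those adjusted values are not the Benjamini-Hochberg values of the unadjusted p in the same deposited table: computed over its 28774 genes, the smallest was 0.000303 and 17 genes were under 0.05, and how the authors adjusted is not stated. On the recovered reads DESeq2 called 42 genes (0.252%), among them all 11, and edgeR 0 (8.4% at an unadjusted p under 0.05).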

How the data were processed

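Total RNA of C4-2B cells was sequenced in 6 libraries, 3 per group. The authors deposited a normalized signal per gene symbol. Within each library 100% of values were whole multiples of 1 step (within 0.01), so reads could be recovered. The deposited comparison table gives log2 fold changes and p-values, per the file headers. The submitters' processing notes name DESeq without a version, and no aligner, build or annotation is stated there.

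Genes at 10 or more in at least 3 libraries were tested two-sided by limma 3.58.1 (R 4.3.3; moderated with trend and robust options) on log2 of the signal plus 1, with Benjamini-Hochberg adjustment over 16657 genes. Fold changes of low genes are understated on this scale. Errors of log2 changes are standard errors. Alternatives used edgeR 4.0.16, DESeq2 1.42.0 and limma-voom on recovered reads, and other scalings and filters. A further one used GC content and length of the longest GENCODE transcript per symbol (96.1% of genes), which need not be the one expressed. The fit was tested on simulated data. One entry without a symbol was left out.

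Named genes are those called, the next 12 by p, the 6 largest rises and falls called without 56-mer 1, the 6 largest without overlap at a mean of at least 100, genes nearly absent from 1 group, 13 listed genes and up to 3 per list by p; further names were picked with their values in view, and some genes the rule names are not reported here. The comparison, lists and rule were chosen with earlier results of these data known.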

Additional observations from a re-analysis of the deposited data

How the results depend on the processing

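The count of 11 called genes (8 higher, 3 lower) became 10 with quantile normalization (2 higher, 8 lower), 11 with equal totals (4 higher, 7 lower), 8 with TMM factors, 34 with no filter on low values, 11 with a mean of at least 50, 10 and 13 with pseudocounts of 0.1 and 10, 18 with library weights, 20 with GC content and length corrected for, 9 with limma-voom, 42 with DESeq2 and 0 with edgeR. It was 1, the weakly expressed AC008267.2, without trend and robust variance, and 0 and 14 at adjusted p thresholds of 0.01 and 0.1. Leaving out 1 library at a time gave 0 to 81. All 11 genes kept their sign under each of these settings, 5 of them were still called with quantile normalization, 7 with equal totals and 8 with the GC and length correction. Fewer libraries leave fewer degrees of freedom, and the cause of the difference between 0 and 81 was not tested.

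Some log2 changes that did not pass over 6 libraries changed sign. With quantile normalization KLK3 had −0.0076, SLC1A5 −0.018, PKM −0.00191 and ATF4 −0.056, and with equal totals ATF4 had −0.012. With the GC and length correction FKBP5 had 0.076, SLC1A5 −0.018, GLUL 0.057, MKI67 0.036 and ATF4 −0.053. With library weights ASNS had 0.041 and LAMA5 0.083, and LAMA5 had 0.047 with edgeR and 0.046 with DESeq2. Leaving out 1 library gave −0.17 to 0.67 for SSPO, −0.12 to 0.023 for FKBP5, −0.065 to 0.0305 for GLUL, −0.19 to 0.17 for ASNS, −0.055 to 0.013 for MKI67, −0.083 to 0.30 for ARRDC4, −0.036 to 0.074 for ATF4, −0.14 to 0.043 for DDIT3, −0.73 to 0.31 for KMT2D, −0.042 to 0.39 for MLXIP and −0.19 to 0.29 for LAMA5. For these the cause was not tested.

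No paired analysis was possible because library titles carry running numbers only and name no culture, day or batch shared between the groups. With 3 libraries per group and 10245014 reads or more in each, genes of few reads have wide intervals, and a change that did not pass is not shown to be absent.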

Other observations

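Several further gene groups were measured, and of their members only CHAC1, which degrades glutathione and is described above, passed with limma over all genes. Of 33 tested replication-dependent histone genes, which are made in S phase, 26 were higher, with a median log2 change of 0.20, and 3 were higher and 1 lower without overlap, where the shares over all tested genes were 7.59% and 7.08%. The linker histone gene H1-2 measured 6456, 6199 and 6052 in controls and 7931, 7106 and 6884 with 56-mer (adjusted p = 0.336). The genes of S phase itself had a median of 0.05 over 20, with the helicase subunit MCM7 at 4608, 4445 and 4500 against 5543, 5289 and 5199 (0.24, 0.317), and those of G2 and mitosis 0.01 over 24. Targets of p53 had a median of −0.08 over 16, with 10 lower, 2 of them without overlap. GADD45A, a growth arrest gene, measured 613, 565 and 633 against 506, 473 and 445 (−0.35, 0.456), and the cell cycle inhibitor CDKN1A overlapped (−0.16).

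Genes of cholesterol and fatty acid synthesis had a median of −0.03 over 26, or of 0.02 without 56-mer 1. ACLY, which makes cytosolic acetyl-CoA, measured 4061, 4035 and 3850 in controls and 3353, 3333 and 3357 with 56-mer, lower without overlap (−0.25, limma adjusted p = 0.322). ELOVL5, a fatty acid elongase, measured 3166, 3072 and 3327 against 3179, 2158 and 2495, with 56-mer 1 at the control level, and passed without it (−0.46, 0.000389). Genes of protein folding in the endoplasmic reticulum had a median of 0.02 over 24. Without overlap 5 were higher and 3 lower (7.59% and 7.08% over all genes). Among the 5 were SDF2L1, a chaperone cofactor (0.38, 0.234), MANF, a secreted stress factor (0.30, 0.41), and P4HB, a disulfide isomerase (0.15, 0.409). The 17 genes of glutathione turnover had a median of 0.02, and GPX4, which uses glutathione to reduce lipid peroxides, was higher without overlap, with 5261, 5283 and 4935 against 6166, 6099 and 5856 (0.23, 0.334). GSR, which regenerates reduced glutathione, was lower without overlap, with 2654, 2407 and 2543 against 1723, 2356 and 2200 (−0.29, 0.428). EGFR, the epidermal growth factor receptor, was lower without overlap (1194, 1345 and 1324 against 1108, 1074 and 1130; −0.22, 0.532).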
